A study of Mus musculus with 30 samples.

Results

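Stratified squamous epithelium lines the mouth, the oesophagus and the skin. Its basal layer holds dividing cells that express the transcription factor Trp63 and the keratins Krt5, Krt14 and Krt15, and the suprabasal layers above it hold cells that leave the cycle and switch to other keratins, Krt4 and Krt13 in the moist epithelia of the mouth and oesophagus. Mouse intrapulmonary airways are lined by club and ciliated cells, with basal cells mainly in the trachea and main bronchi, so RNA of suprabasal squamous cells is not a usual component of whole lung RNA. The genes described here are 8 squamous epithelium genes in arrays of mouse lung, namely Krt4, Krt13, Krtdap and Sbsn of the suprabasal layers and Krt5, Krt15, Trp63 and Dsg3 of the basal side. They were chosen by their measured values, since they stood high in lungs labelled young Zmpste24 deficient and saline treated, so their levels there and every difference that uses those arrays are given as a description without a test. Only probe sets annotated to a single symbol were read, the brightest where a gene has several, and 7 of the 8 genes have one, among 22180 genes measured in this way. The sole probe set of Krt5 names Krt6a as well, so no value is given for Krt5, and its partner keratin Krt14 is described among the other basal genes.

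Lung RNA of c57BL/6 mice was hybridized to 30 arrays, 3 in each of 10 groups, in 2 sets of 15 arrays that were run at different moments by the labels. Zmpste24, which is lost from the germ line in the deficient (KO) mice, encodes the metalloproteinase that matures prelamin A, and the KO mice age early. Mice received bleomycin or saline by the oropharyngeal route and lungs were taken at day 21. By the labels, set 1 held old KO bleomycin and old KO saline lungs (16 weeks), young KO saline lungs (7 weeks), and WT bleomycin and WT saline lungs of 16 weeks, whose titles read young and whose descriptions read old. Set 2 held young KO bleomycin lungs and a second group of young KO saline lungs (7 weeks each), old WT bleomycin and old WT saline lungs (82 weeks), and young WT saline lungs (7 weeks). The methods give younger ages at the start of treatment, and the bleomycin dose differs between the labels and the methods. The KO is constitutive and acts in every cell, and mice were genotyped from tail DNA. The values are log2 probe set levels, array medians ran from 5.95 to 6.19, and precision is limited by having 3 arrays in a group. The sources do not say whether the 6 young KO saline arrays hold 6 mice, and the p-values below measure the spread between arrays.

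The targeted gene was read in each array before any other value. Zmpste24 had a level of 5.69 to 6.56 (log2) in the 9 old KO and young KO bleomycin arrays, against 7.93 to 8.68 in the 15 WT arrays. In the arrays labelled young KO saline it was 6.09, 7.60 and 7.93 in set 2 and 5.62, 7.55 and 5.29 in set 1. Thus 3 of these 6 arrays (set 2 replicates 2 and 3, set 1 replicate 2) stood above every other KO array and below every WT array. The highest of them lay just below the lowest WT array. Levels above the other KO arrays go against the label, and the group is called "labelled young KO saline" for this reason. The same 3 arrays had high Xist, the RNA that coats an inactive X (9.64, 10.08 and 10.29), whereas the other 3 had 4.16 to 4.19. High Xist was also seen in other groups. It was 9.86 in old KO saline replicate 3, and 9.18 and 10.19 in young KO bleomycin replicates 1 and 3. In WT lungs it was 10.52 and 10.33 in 16-week bleomycin replicates 2 and 3, and 10.61 in young saline replicate 1. The remaining arrays of the other groups had 4.14 to 4.80. Over all genes, the closest pair of these arrays was set 2 replicates 2 and 3 (r = 0.994). Set 2 replicate 1 was most like set 1 replicate 3 (r = 0.991) and set 1 replicate 2 was most like set 2 replicate 3 (r = 0.991). For the 24 pairs of arrays within the other 8 groups, r ran from 0.944 to 0.992.

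Squamous RNA was carried by 5 arrays, all labelled young KO saline. All 7 measured genes were above each of the 24 other arrays in 5 of these 6 arrays, namely the 3 of set 2 and replicates 2 and 3 of set 1. In set 1 replicate 1 only Krt4 was above them. Of all 22180 genes, 4.62%, 8.12% and 5.88% were above each of the 24 arrays in set 2 replicates 1, 2 and 3, and 3.45%, 5.78% and 3.19% in set 1 replicates 1, 2 and 3, and since these levels chose the genes nothing is read from the members' count. The 5 arrays include those with low Zmpste24 (set 2 replicate 1 and set 1 replicate 3) as well as the 3 with Zmpste24 above 7. In bulk lung RNA, more cells of a type and more RNA per cell cannot be told apart.

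Krt4 encodes the type II keratin of the suprabasal layers of internal squamous epithelia. Its level was 11.81, 11.68 and 11.40 (log2) in the arrays labelled young KO saline of set 2, and 6.22, 11.64 and 11.82 in those of set 1. The 24 other arrays lay between 4.65 and 5.72 with a median of 5.14. The lowest of the 5 high arrays was 5.68 (log2) above the highest of the 24, while the 24 themselves spanned 1.07. No fold is given, since the 24 arrays lay below the median of all probe sets and may be at background.

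Krt13 encodes the type I keratin that pairs with Krt4. Its level was 9.65, 9.77 and 10.06 (log2) in set 2 and 5.75, 10.06 and 10.32 in set 1 of the arrays labelled young KO saline, against 5.03 to 5.93 in the 24 other arrays. Set 1 replicate 1 lay inside the range of the 24 arrays. Krtdap encodes a secreted protein of differentiating keratinocytes. It had 10.78, 9.82 and 10.19 in set 2 and 5.83, 10.24 and 10.85 in set 1, against 5.58 to 6.25 in the 24 arrays. Sbsn (suprabasin), another secreted product of suprabasal cells, had 7.25, 6.74 and 6.46 in set 2 and 5.92, 7.08 and 7.08 in set 1, against 5.78 to 6.37 in the 24 arrays. Thus Sbsn followed the same 5 arrays with a much smaller difference, and its lowest high array was 0.0874 (log2) above the highest of the 24.

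The start regions of Krt13, Krtdap and Sbsn are shown because the RefSeq promoter table (GRCm38.p6) holds a window for these 3 of the 7 genes. Each window has 250 bases before and 50 after the start. Krt13 lies on the minus strand at chr11:100121517-100121816 (the start farther upstream of the 2 listed), Krtdap on the plus strand at chr7:30787655-30787954 and Sbsn on the plus strand at chr7:30751221-30751520. Capitals mark matches on either strand to TGANTCA or to TATAAA, the core of a TATA box, and no match of one overlaps the other. TGANTCA is a wider pattern than the AP-1 site, which has C or G at N. The Krt13 match and the first Sbsn match shown have A at N.
Krt13: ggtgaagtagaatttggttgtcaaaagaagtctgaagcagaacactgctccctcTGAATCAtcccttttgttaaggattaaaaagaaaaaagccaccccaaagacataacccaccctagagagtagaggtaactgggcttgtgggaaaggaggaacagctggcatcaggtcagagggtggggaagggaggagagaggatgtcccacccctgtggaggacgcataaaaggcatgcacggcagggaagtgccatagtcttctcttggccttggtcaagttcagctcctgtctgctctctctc
Krtdap: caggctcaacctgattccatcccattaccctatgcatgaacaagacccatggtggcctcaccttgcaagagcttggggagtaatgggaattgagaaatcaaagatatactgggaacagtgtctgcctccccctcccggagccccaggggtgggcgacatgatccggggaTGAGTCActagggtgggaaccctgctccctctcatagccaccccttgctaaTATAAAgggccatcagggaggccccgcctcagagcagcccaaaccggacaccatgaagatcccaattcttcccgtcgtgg
Sbsn: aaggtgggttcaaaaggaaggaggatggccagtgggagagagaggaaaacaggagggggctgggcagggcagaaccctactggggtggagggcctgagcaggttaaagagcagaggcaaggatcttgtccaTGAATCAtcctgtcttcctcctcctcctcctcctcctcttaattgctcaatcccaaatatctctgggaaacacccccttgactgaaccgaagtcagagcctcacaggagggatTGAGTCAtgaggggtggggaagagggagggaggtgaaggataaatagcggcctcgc
In the windows shown, TGANTCA was found 1 time for Krt13 (2 times in the window of its other start, not shown), 1 time for Krtdap and 2 times for Sbsn, and 7.81% of 32851 mouse promoters of the same length hold it. TATAAA was found 1 time for Krtdap and was not in the other 2 windows, and 13.6% of the promoters hold it. These matches describe the letters of the windows and not the binding of a factor.

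**Figure D1:**
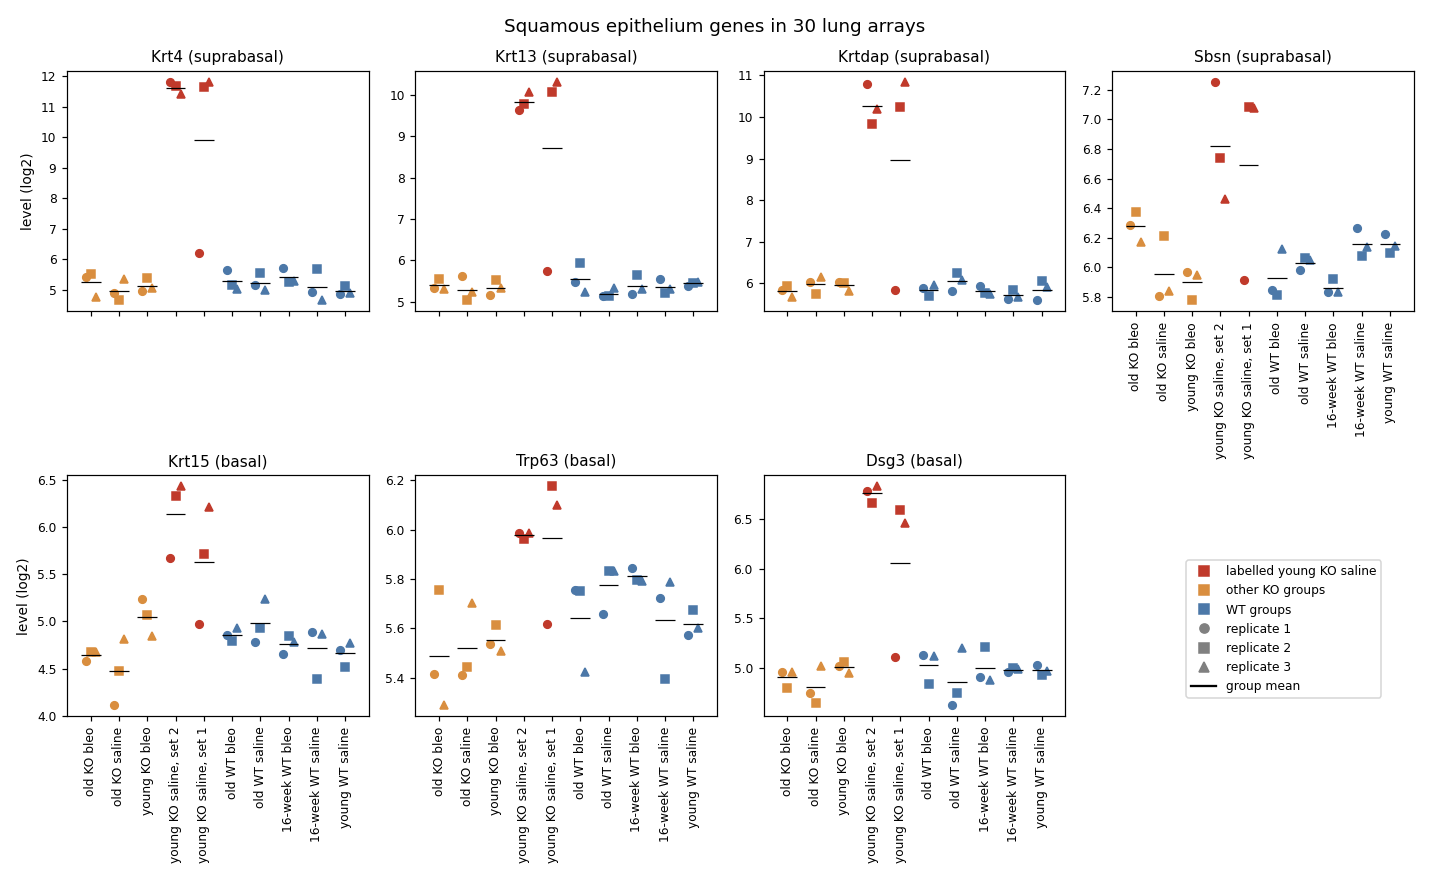
Level (log2) of the 7 measured squamous epithelium genes in each of 30 arrays, by group along the horizontal axis, with 1 symbol per replicate and a line at the group mean. The 3 arrays of set 2 and replicates 2 and 3 of set 1 labelled young KO saline stand above all others in every panel, and set 1 replicate 1 stands apart from the 24 other arrays for Krt4 alone.

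On the basal side, Krt15 encodes a keratin of basal cells. Its level was 5.67, 6.32 and 6.43 (log2) in set 2 and 4.97, 5.72 and 6.21 in set 1 of the arrays labelled young KO saline, against 4.11 to 5.23 in the 24 other arrays. Dsg3, the desmosomal cadherin of the lower layers, had 6.79, 6.67 and 6.84 in set 2 and 5.11, 6.60 and 6.46 in set 1, against 4.62 to 5.21. Trp63, the transcription factor required for stratified epithelia to form, had 5.99, 5.96 and 5.99 in set 2 and 5.62, 6.17 and 6.10 in set 1, against 5.29 to 5.84. All 3 basal genes were therefore highest in the same 5 arrays as the suprabasal genes. Their differences were smaller than those of Krt4, Krt13 and Krtdap, while those of Dsg3 and Krt15 exceeded that of Sbsn. The mean of the 5 arrays exceeded the mean of the 24 by 1.73 (log2) for Dsg3, 1.303 for Krt15 and 0.41 for Trp63, against 6.50 for Krt4, 4.61 for Krt13, 4.51 for Krtdap and 0.89 for Sbsn. Levels of different probe sets are not comparable, so these are differences within each gene.

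**Figure D2:**
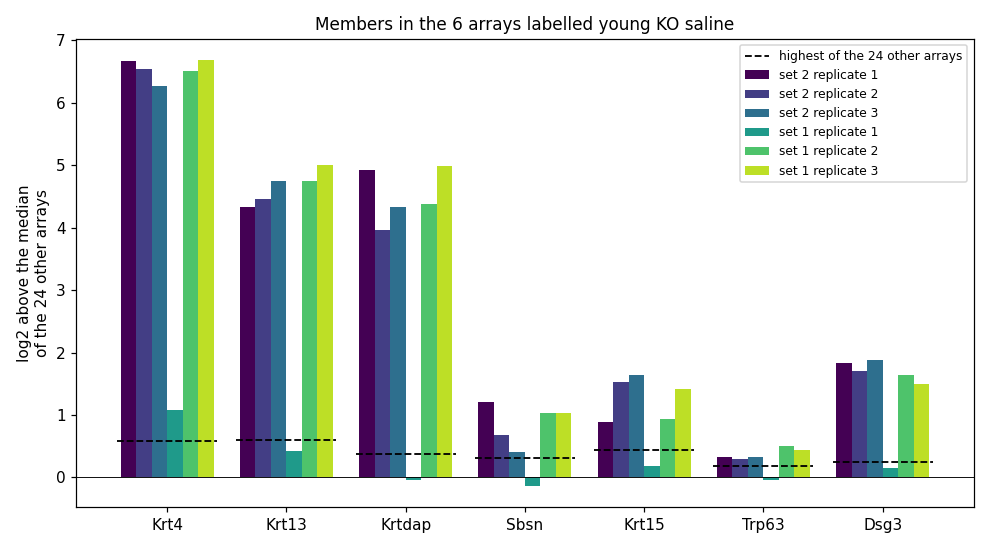
Level of each gene in the 6 arrays labelled young KO saline as log2 above its median in the 24 other arrays (bars), with a dashed line at the highest of those 24 arrays. All bars but those of set 1 replicate 1 pass the dashed line, and in set 1 replicate 1 only the Krt4 bar does.

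Whether basal genes followed suprabasal ones was described at 2 levels. Across all arrays both were high in arrays labelled young KO saline, where the genes were chosen for standing high. That sharing was fixed in advance, so it does not show whether basal genes follow suprabasal ones. The mean of the 4 suprabasal genes was 0.33 to 4.42 (log2 above the median of the 24 arrays, n = 6, median 4.05) in the arrays labelled young KO saline and -0.19 to 0.25 in the 24 others, and the mean of the 3 basal genes was 0.10 to 1.28 (median 1.07) in the same 6 arrays and -0.38 to 0.28 in the 24 others. Among the 5 high arrays the order was not shared. Krt4, Krt13 and Krtdap were each highest in set 1 replicate 3, Sbsn in set 2 replicate 1, Krt15 and Dsg3 in set 2 replicate 3, and Trp63 in set 1 replicate 2. Set 2 replicate 3 had the lowest Krt4 and Sbsn of the 5 arrays and the highest Krt15 and Dsg3. With 5 arrays in a separate cluster no correlation was computed over them.

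**Figure D3:**
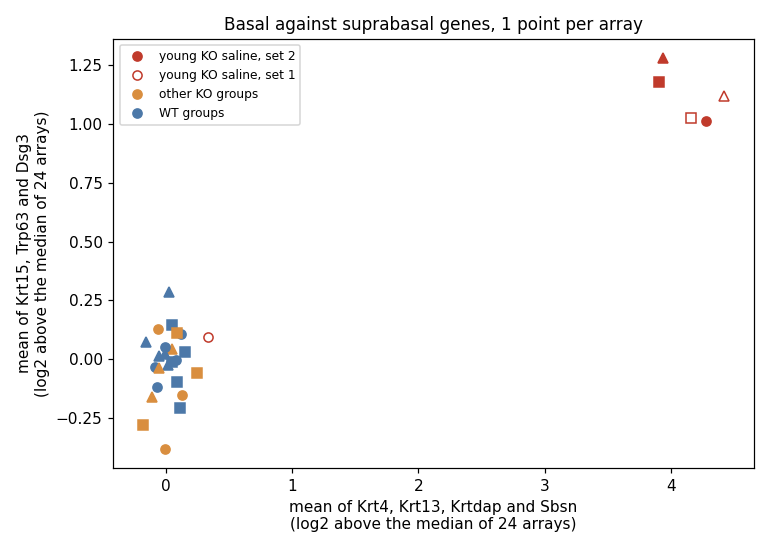
Mean of the basal genes Krt15, Trp63 and Dsg3 against the mean of the suprabasal genes Krt4, Krt13, Krtdap and Sbsn, each as log2 above the median of the 24 arrays that are not labelled young KO saline, with 1 point per array and the shape marking the replicate number. The 5 high arrays form a separate cluster at 3.91 to 4.42 on the horizontal axis, and set 1 replicate 1 lies beside the 24 arrays at 0.33.

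In the 24 other arrays, where the choice of the genes favours low levels, 7 pairs of members were correlated. These were 2-sided permutation tests with 100000 permutations, adjusted over the 7 pairs. Trp63 with Krt4 had r = 0.33 (p = 0.118, adjusted p = 0.810) and rho = 0.35 (p = 0.0918, adjusted p = 0.643). Trp63 with Krt13 had r = 0.20 (p = 0.346, adjusted p = 0.810) and rho = 0.11 (p = 0.610, adjusted p = 0.979). Krt4 with Krt13 had r = 0.0034 (p = 0.987, adjusted p = 0.987) and rho = -0.065 (p = 0.760, adjusted p = 0.979). No pair passed, so neither the basal gene nor the partner keratin was found to track Krt4 or Krt13 at this background level. Since even the partner keratins Krt4 and Krt13 were not correlated here, these arrays cannot show whether basal genes follow suprabasal ones. The 4 pairs of Krt15 and Dsg3 with Krt4 and Krt13, added after the data were seen in place of Krt5, had r of -0.076 to 0.20. Within the sets, Trp63 with Krt4 had r = 0.26 (permutation p = 0.404) in set 1 and r = 0.51 (permutation p = 0.0908) in set 2, over 12 arrays each. Without the 2 arrays farthest from the median Krt4, r was 0.42 (permutation p = 0.0522, adjusted p = 0.365, n = 22). Trp63 with Krt13 had r = 0.21 in set 1 and 0.20 in set 2, and 0.059 without the 2 arrays farthest from the median Krt13. After subtracting group means this pair had r = 0.39 (permutation p = 0.0575, adjusted p = 0.403) and rho = 0.46 (permutation p = 0.0260, adjusted p = 0.171).

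Outside the arrays labelled young KO saline the genes lay at a common low level in all 8 groups. Krt4 averaged 5.24 ± 0.40 in old KO bleomycin, 4.96 ± 0.36 in old KO saline and 5.14 ± 0.22 in young KO bleomycin lungs (log2, SD, n = 3 each). In WT lungs it averaged 5.28 ± 0.33 in old bleomycin, 5.24 ± 0.28 in old saline, 5.43 ± 0.26 in 16-week bleomycin, 5.09 ± 0.53 in 16-week saline and 4.96 ± 0.15 in young saline (SD, n = 3 each). In the order of these means, from 16-week WT bleomycin at the top to old KO saline and young WT saline at the bottom, each step to the next group was smaller than their SD. The means of the 8 groups ran from 5.19 to 5.55 for Krt13, from 5.71 to 6.04 for Krtdap, from 5.86 to 6.28 for Sbsn, from 4.47 to 5.05 for Krt15, from 5.49 to 5.81 for Trp63 and from 4.80 to 5.03 for Dsg3.

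In young KO lungs the genes lay at this low level in all 3 arrays after bleomycin and, by their labels, stood high in 5 of 6 arrays after saline. The young KO bleomycin arrays had Krt4 at 4.96, 5.39 and 5.07, and Krt13 at 5.16, 5.53 and 5.32, all within the range of the old KO and WT arrays. Within set 2, young KO bleomycin less labelled young KO saline lungs gave -6.49 (log2) for Krt4, -4.49 for Krt13, -4.32 for Krtdap, -0.92 for Sbsn, -1.09 for Krt15, -0.42 for Trp63 and -1.76 for Dsg3. Labelled young KO saline less young WT saline lungs gave 6.67 for Krt4, 4.39 for Krt13, 4.42 for Krtdap, 0.66 for Sbsn, 1.48 for Krt15, 0.36 for Trp63 and 1.79 for Dsg3. These 2 differences share the same 3 arrays labelled young KO saline. With set 2 replicate 1 alone in that group, the array with low Zmpste24, the difference from young WT saline was 6.85 for Krt4, 4.21 for Krt13, 1.10 for Sbsn and 1.01 for Krt15.

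Within set 1, old KO saline less labelled young KO saline lungs gave -4.93 for Krt4, -3.42 for Krt13, -3.00 for Krtdap, -0.74 for Sbsn, -1.16 for Krt15, -0.44 for Trp63 and -1.26 for Dsg3. These means hold 1 array without most of the RNA. Without set 1 replicate 1 the differences were -6.77 for Krt4, -4.90 for Krt13, -4.57 for Krtdap, -1.13 for Sbsn, -1.49 for Krt15, -0.62 for Trp63 and -1.73 for Dsg3. The SD of Krt4 in the arrays labelled young KO saline was 0.21 in set 2 and 3.18 in set 1 (n = 3 each).

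The effects of bleomycin and of age were tested in the groups outside the arrays labelled young KO saline. The genes were chosen for standing high in those arrays, which implies a lower level in these groups. That choice favours few calls here, so a count of 0 does not show that bleomycin or age leaves these genes unchanged. In old KO bleomycin against old KO saline lungs 0 of 7 genes passed (limma, adjusted p under 0.05 over 22180 genes, where 10.6% of all genes passed). Sbsn had 6.29, 6.37 and 6.17 in old KO bleomycin lungs, against 5.81, 6.21 and 5.84 in old KO saline lungs, a difference of 0.32 ± 0.21 (log2, SE, adjusted p = 0.346). The groups overlapped, since the lowest bleomycin array lay below the highest saline array. The 7 differences ran from -0.17 to 0.32 with a median of 0.10, beside a median of -0.01 over all genes.

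In 16-week WT bleomycin against saline lungs 0 of 7 passed (0.721% of all genes), with differences from -0.30 to 0.34. In old WT bleomycin against saline lungs 0 of 7 passed (1.01% of all genes), with differences from -0.20 to 0.35. In old against young WT saline lungs 0 of 7 passed (8.12% of all genes), with differences from -0.25 to 0.32. In each of these 4 comparisons 0 of 7 genes had an unadjusted p under 0.05. The SE of these differences was 0.75 for Krt4, 0.60 for Krt13 and 0.64 for Krtdap, a spread that includes set 1 of the arrays labelled young KO saline, and 0.14 to 0.23 for the other 4 genes. Fitted without those 6 arrays the counts were again 0 of 7 in each.

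The bleomycin effect in old KO less that in 16-week WT lungs passed for 0 of 7 genes (4.37% of all genes), with 1 at an unadjusted p under 0.05. That gene was Sbsn, at 0.62 ± 0.29 (SE, limma adjusted p = 0.255). It had 5.83, 5.92 and 5.83 in 16-week WT bleomycin lungs, against 6.27, 6.07 and 6.14 in 16-week WT saline lungs, with no overlap. Fitted without the 6 arrays labelled young KO saline the same difference had an adjusted p of 0.049, the only setting of those run in which a member passed.

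The other squamous genes came from a list of 22 with probe sets of their own, which holds further suprabasal keratins and cornified envelope proteins. In the arrays labelled young KO saline, 11 of the 22 were above each of the 24 other arrays in set 2 replicate 1, 13 in replicate 2 and 12 in replicate 3, and 1 in set 1 replicate 1 and 12 in each of replicates 2 and 3. The mean of the list was 7.15 to 7.27 (log2) in the 5 high arrays and 5.91 in set 1 replicate 1, against 5.71 to 6.20 in the 24 others. Of all genes, 3.19% to 8.12% were above the 24 others in the 5 high arrays and 3.45% in set 1 replicate 1. The list was written with earlier results of these data known, and these arrays chose the members. The counts are therefore a description, and nothing is read from them.

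Sprr3, a proline-rich precursor of the cornified envelope in the oesophagus, had 8.05, 7.83 and 7.61 in set 2 and 4.58, 7.76 and 8.27 in set 1, against 3.42 to 4.15 in the 24 other arrays. Cnfn (cornifelin), also of the envelope, had 11.20, 10.01 and 10.14 in set 2 and 6.99, 10.85 and 11.15 in set 1, against 6.54 to 7.13. The transglutaminase Tgm3, which cross-links envelope proteins, had 9.35, 9.27 and 9.16 in set 2 and 5.67, 8.46 and 9.25 in set 1, against 5.38 to 6.46. These 3 genes separated the same 5 arrays, and Sprr3 alone of them was above the 24 arrays in set 1 replicate 1. The keratin Krt16 of the list did not separate them, with 4.87 to 5.36 in the arrays labelled young KO saline against 4.82 to 5.44.

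Counted over all genes tested by limma, 11 of 22 were higher in labelled young KO saline than in young WT saline lungs (1.33% of all genes were higher), 9 of 22 were lower in young KO bleomycin than in labelled young KO saline lungs with 1 higher (2.22% of all genes were lower), and 9 of 22 were lower in old KO saline than in labelled young KO saline lungs (1.23% of all genes were lower). These comparisons hold the arrays that chose the members, so nothing is read from the counts. Fitted on only the old KO saline and labelled young KO saline arrays of set 1 the last count was 0, and it was 13 without set 1 replicate 1, 1 without replicate 2 and 3 without replicate 3.

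The other basal genes came from a list of 14 measured genes of basal cells and their adhesion structures. In the 5 high arrays 6 to 9 of the 14 were above each of the 24 others, and in set 1 replicate 1 it was 1 of 14, where 3.19% to 8.12% of all genes were in the 5 arrays and 3.45% in set 1 replicate 1. The mean of the list was 7.05 to 7.19 in the 5 arrays and 6.46 in set 1 replicate 1, against 6.31 to 6.61 in the 24 others. Krt14, the partner of Krt5 in basal cells, had 6.05, 6.27 and 5.99 in set 2 and 4.93, 6.48 and 6.25 in set 1, against 4.70 to 5.40. Krt14 thus separated the same 5 arrays as Krt15. Krt17, another keratin of this list, did not, with 4.87 to 5.71 in the arrays labelled young KO saline against 4.35 to 5.76.

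Pkp1 (plakophilin, a desmosomal plaque protein) had 7.10, 6.82 and 6.93 in set 2 and 5.43, 6.70 and 6.81 in set 1, against 5.01 to 5.96. Perp, a desmosomal membrane protein controlled by Trp63, had 8.72, 8.37 and 8.43 in set 2 and 7.57, 8.59 and 8.56 in set 1, against 6.93 to 8.56, so its arrays overlapped with the 24 others. Snai2, a transcription factor of basal cells and of mesenchyme, had 9.67, 9.89 and 9.93 in set 2 and 9.61, 9.83 and 9.73 in set 1, against 7.82 to 9.47, and was high in set 1 replicate 1 too. By the count over all genes, 7 of 14 were higher in labelled young KO saline than in young WT saline lungs, 7 of 14 were lower in young KO bleomycin than in labelled young KO saline lungs and 3 of 14 were lower in old KO saline than in labelled young KO saline lungs, and nothing is read from these counts for the reason given above. The last count was 0 in the fit of only the groups compared, 7 without set 1 replicate 1 and 0 without replicate 2 or 3. Without the 3 arrays with Zmpste24 above 7, the counts in old KO saline against labelled young KO saline lungs were 0 of 14 basal and 1 of 22 squamous genes.

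Among 49 keratins of the Krt family with a probe set of their own, those with the widest range over 30 arrays were Krt4 (7.17, log2), Krt13 (5.29), Krt15 (2.32), Krt79 (2.15), Krt14 (1.78) and Krt19 (1.64). Krt79 and Krt19 did not follow the 5 arrays. Krt79 was 6.66 to 6.90 in the arrays labelled young KO saline, against 6.32 to 8.48 in the 24 others, and Krt19, a keratin of simple epithelia, was 7.65 to 8.16 against 7.08 to 8.71. Of the 46 keratins that are not members, 2 were counted as higher in labelled young KO saline than in young WT saline lungs (Krt14 and Krt78), where 1.33% of all genes were, and nothing is read from this count since the comparison holds the arrays that chose the members. Of 8 measured genes of cornified skin, 2 or 3 were above the 24 arrays in each of the 5 high arrays (3.19% to 8.12% of all genes) and 0 in set 1 replicate 1, led by Asprv1, a protease of the granular layer, and Hrnr. The skin keratins of that list did not follow, since Krt1 and Krt2 had 0 of 6 arrays above the 24 and Krt10 had 2.

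Genes that neighbour the members on the chromosome were looked up in RefSeq order. Krt15 is the next gene after Krt13, and Krt19, the gene after Krt15, stayed inside the range of the 24 arrays. Dmkn (dermokine), between Sbsn and Krtdap, had 8.67, 8.49 and 8.42 in set 2 and 7.33, 8.67 and 8.80 in set 1, against 6.77 to 7.84. On the other sides of that pair, Gapdhs and Tmem147 beside Sbsn and Ffar2 and Ffar3 beside Krtdap had 0 of 6 arrays above the 24 others. Of the genes beside Krt4, Krt78 had 5 of 6 arrays above the 24, and Krt76, Krt77 and Krt79 had 0. Beside Trp63, Tprg had 4 of 6 arrays above the 24, Lpp had 1, and P3h2 and Cldn1 had 0, and beside Dsg3, Ttr had 3 of 6, and Dsg1b, Dsg4 and Dsg2 had 0.

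The 8 genes most like the mean of Krt4, Krt13, Krtdap and Sbsn over the 30 arrays (Pearson's r, a description, since 5 arrays of 1 label form a cluster) were Sprr3, Acta1, Cnfn, Lor, Neb, Myh1, Atp2a1 and Mt4, with r of 0.977 to 0.990. The 8 most like the mean of Krt15, Trp63 and Dsg3 were Neb, Myoz1, Acta1, Lor, Gm94, Sprr3, Ckm and Tgm3, with r of 0.948 to 0.960. Of the 12 genes named in all, 4 were on both lists. Sprr3, Cnfn, Lor (loricrin) and Tgm3 belong to squamous epithelium, while Acta1, Neb, Myh1, Atp2a1, Ckm and Myoz1 encode proteins of skeletal muscle fibres.

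Skeletal muscle RNA moved with the squamous RNA in the same arrays. Of 14 muscle genes, 12 or 13 were above each of the 24 other arrays in each of the 5 high arrays, and 1 was in set 1 replicate 1 (3.19% to 8.12% and 3.45% of all genes). The mean of the muscle list was 7.49 to 7.73 (log2) in the 5 arrays and 5.71 in set 1 replicate 1, against 5.47 to 5.94 in the 24 others. Acta1, skeletal alpha actin, had 10.60, 10.75 and 10.55 in set 2 and 6.36, 10.78 and 10.53 in set 1, against 5.78 to 6.60. Myh1, a fast myosin heavy chain, had 8.77, 7.98 and 8.49 in set 2 and 4.42, 8.93 and 8.65 in set 1, against 4.15 to 5.32. The part of muscle tissue in the squamous result was not tested.

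The mean of the brown fat list and Ucp1 were high in only some of these arrays. The mean of 6 brown fat genes was 5.71, 6.61 and 6.84 in set 2 and 5.85, 6.92 and 5.70 in set 1, against 5.28 to 5.96 in the 24 others. Ucp1, the uncoupling protein that defines brown fat, had 5.46, 8.72 and 9.13 in set 2 and 6.01, 8.78 and 5.57 in set 1, against 4.91 to 6.42. High Ucp1 was thus in the 3 arrays with Zmpste24 above 7. The 2 arrays with low Zmpste24 that carried squamous and muscle RNA had Ucp1 inside the range of the 24 arrays. Cox8b had 6.37, 6.69 and 6.89 in set 2 and 6.58, 7.24 and 6.26 in set 1, against 5.09 to 6.22 in the 24 others. Cox8b was thus above the 24 others in every array labelled young KO saline. In set 2 replicate 1 and set 1 replicate 3, which had low Zmpste24, it was so by a small margin (6.37 and 6.26, against 6.22). Whether its RNA came from brown fat was not tested. Log2 probe set levels have no true zero, so no marker can be called absent.

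Lung and airway genes were read beside these. Alveolar type 2 genes averaged 12.08 to 12.22 and alveolar type 1 genes 10.38 to 10.42 in the 6 arrays labelled young KO saline, against 11.16 to 12.31 and 9.81 to 10.54 in the 24 others, so the markers of lung were high in the arrays with squamous RNA too. Ciliated cell genes averaged 8.31 to 8.51 in the 6 arrays, against 8.54 to 9.37 in the 24 others, and were low in set 1 replicate 1 (8.42) as well as in the 5 arrays with squamous RNA. Club cell genes averaged 12.01 to 12.28 in the 6 arrays, against 11.60 to 12.37, and thymus genes 5.95 to 6.19, against 5.81 to 6.43. Thyroid genes averaged 5.64 to 5.93 (5.59 to 5.98 in the 24) and cartilage genes 5.19 to 5.71 (5.11 to 5.58), with 3 of 8 cartilage genes above the 24 arrays in set 2 replicate 2 (8.12% of all genes). Secretory genes of the upper airway (8.49 to 9.06, against 7.85 to 10.32), white fat genes (5.97 to 6.50, against 5.39 to 6.56), cardiac muscle genes (8.18 to 8.82, against 7.07 to 9.48) and the simple keratins with Cldn4 (7.75 to 7.93, against 7.58 to 8.80) stayed inside the range of the 24 arrays.

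**Figure D4:**
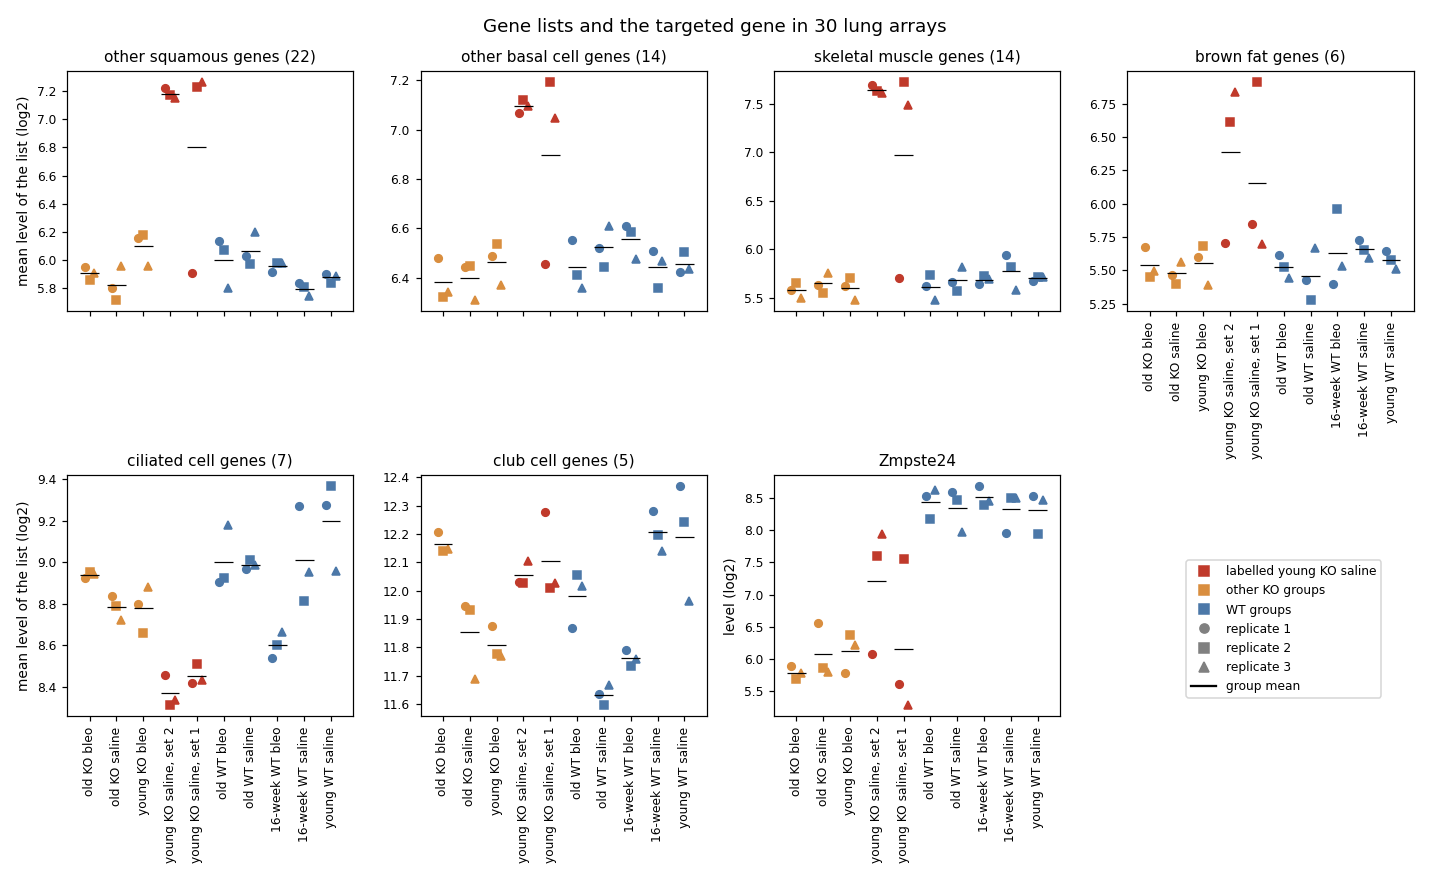
Mean level (log2) of 6 gene lists, and the level of Zmpste24, in each of 30 arrays by group, with 1 symbol per replicate and a line at the group mean. The other squamous, other basal and skeletal muscle lists are high in the same 5 arrays labelled young KO saline, the mean of the brown fat list in 3 of them, and the ciliated list is low in all 6.

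Some genes of the squamous list were also high where Krt4 was not, in groups outside the arrays labelled young KO saline. Sprr1a, an envelope precursor that injured lung epithelium also expresses, averaged 8.39 ± 0.44 in 16-week WT bleomycin and 5.45 ± 0.25 in 16-week WT saline lungs (SD, n = 3 each), a difference of 2.94 ± 0.46 (SE, limma adjusted p = 0.00127). It averaged 8.49 ± 0.13 in old WT saline and 5.53 ± 0.48 in young WT saline lungs (SD, n = 3 each), a difference of 2.95 ± 0.46 (SE, limma adjusted p = 9.86e-05), and 6.49 ± 1.35 in old WT bleomycin lungs. Young KO bleomycin lungs had 8.36 ± 0.06, level with the 8.38 ± 0.18 of labelled young KO saline lungs in set 2 (SD, n = 3 each). Sprr1a therefore did not mark the 5 arrays by itself, while Krt4 in all those groups stayed at 4.65 to 5.72 outside the arrays labelled young KO saline.

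Tgm1, the keratinocyte transglutaminase, rose in 16-week WT lungs after bleomycin by 0.76 ± 0.18 (SE, limma adjusted p = 0.0454) and was higher by 1.12 ± 0.18 in old WT than in young WT saline lungs (SE, limma adjusted p = 0.000208). Spink5, a protease inhibitor of stratified epithelia, rose after bleomycin by 0.85 ± 0.19 in old KO lungs (SE, limma adjusted p = 0.00469) and by 0.86 ± 0.19 in old WT lungs (SE, limma adjusted p = 0.0210). Scel and Ppl, which build the envelope and its keratin links, rose by 1.11 ± 0.29 (limma adjusted p = 0.0145) and 0.64 ± 0.17 (limma adjusted p = 0.0158) in old KO lungs after bleomycin. In all, 3 of 22 squamous genes were called in old KO bleomycin against saline lungs (10.6% of all genes), 2 of 22 in 16-week WT bleomycin against saline lungs (0.721%), 2 of 22 in old WT bleomycin against saline lungs (Sprr1a lower, Spink5 higher, 1.01%) and 2 of 22 in old against young WT saline lungs (8.12%). Of 14 basal genes, 1 was called in the first of these comparisons, where 10.6% of all genes were, and 0 in the other 3. This gene was Perp, higher by 0.94 ± 0.23 in old KO bleomycin than in old KO saline lungs (SE, limma adjusted p = 0.00835). In the bleomycin effect of old KO less that of 16-week WT lungs, Ppl of the 22 squamous genes (1.01 ± 0.24, SE, limma adjusted p = 0.0160) and Perp of the 14 basal genes (1.12 ± 0.32, SE, limma adjusted p = 0.0437) passed, where 4.37% of all genes did.

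**Figure D5:**
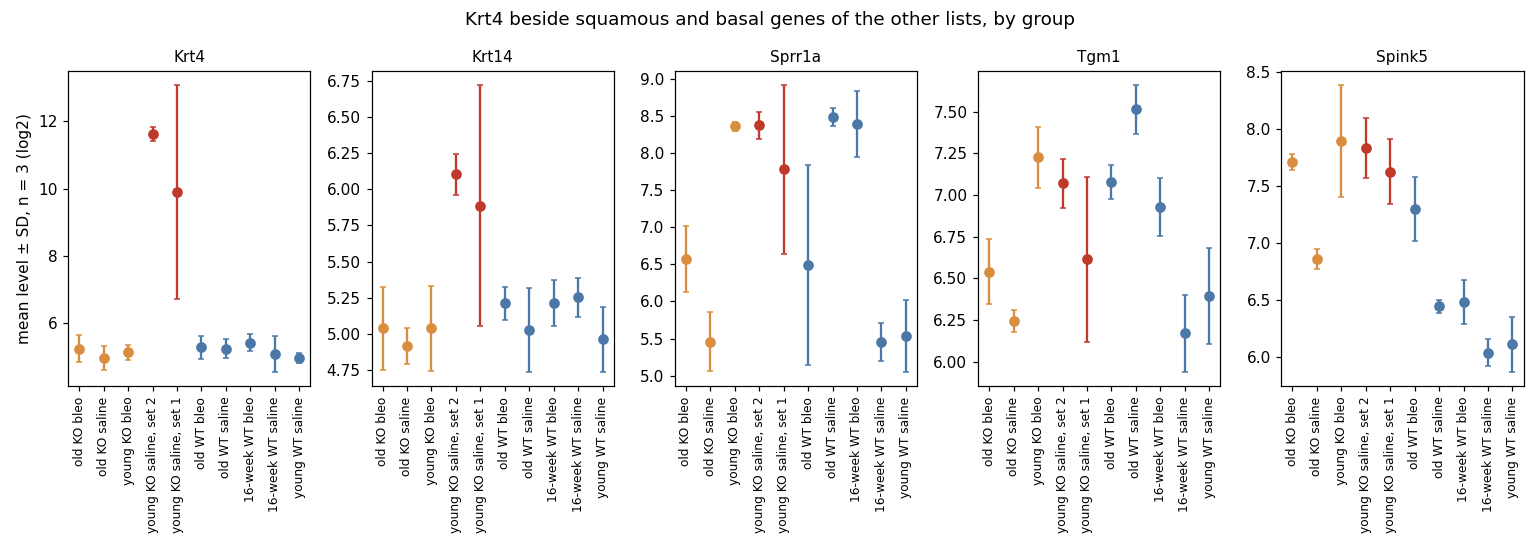
Mean level (log2) with SD of n = 3 arrays for Krt4, Krt14, Sprr1a, Tgm1 and Spink5 in the 10 groups. Krt4 and Krt14 are high only in the arrays labelled young KO saline, with a wide SD in set 1 where 1 array is low, whereas Sprr1a is as high in young KO bleomycin, old WT saline and 16-week WT bleomycin lungs.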

How the data were processed

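Total lung RNA was labelled with biotin and measured on Affymetrix Mouse Gene 2.0 ST arrays. The deposited log2 values, made by the authors, are probe set summaries on a common scale. The background correction, normalization, genome build and annotation version are not stated in the sources, and the submitters' processing notes name limma. Of 41345 probe sets, 23521 name 1 gene, and the probe set with the highest mean per gene was kept (22180 genes).

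A model of 10 group means was fitted with limma 3.58.1 under R 4.3.3 to all 30 arrays, with Benjamini-Hochberg adjustment over all genes, and a call is an adjusted p under 0.05. The fit was tested on simulated data. The members and lists were chosen with earlier results of these data known. No p is given for members in comparisons that hold the arrays that chose them. Those arrays still share in the variance of the fit behind the other p-values, and a fit without them was an alternative. Members are given in full. From the lists, genes with the largest difference between labelled young KO saline and young WT saline lungs are named. These are 4 each for the squamous and basal lists and 2 each for cornified skin, skeletal muscle and brown fat. The remaining lists are described by their mean levels. Also named are 6 keratins by range and 8 genes by likeness for each role. Tgm1, Spink5, Scel, Ppl, Krt16, Krt17 and the chromosome neighbours were named after their values were seen. Krt5 was not analysed here, and no array was left out. The 5 list genes without a probe set of their own were not used. Alternatives were quantile normalization, median centring, a filter on dim genes (mean under 5.2), the mean of probe sets, array weights, a trended robust variance, fits of only the groups compared, a replicate block, leaving out arrays, and set as a term. The software was python 3.11.15, pandas 2.3.3, numpy 2.4.6, scipy 1.17.1 and matplotlib 3.10.9.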

Additional observations from a re-analysis of the deposited data

Results flagged for a closer look

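Among the 6 arrays labelled young KO saline, set 1 replicate 1 lay far below the other 5 for 4 of 7 members, where the gap to the nearest array took more of the range than Dixon's limit for 6 values. Its level was 6.22 (log2) for Krt4 (gap 0.925 of the range), 5.75 for Krt13 (0.853), 5.83 for Krtdap (0.795) and 5.11 for Dsg3 (0.783). Sbsn, Krt15 and Trp63 were lowest in the same array and stayed within the limit, with gaps of 0.407, 0.479 and 0.615. Chance puts about 5% of unselected groups past such a limit. That rate does not apply to genes chosen for being high under this label, so the gaps are a description and no test.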

How the results depend on the processing

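Over 531 combinations of a result and an alternative setting, 505 were labelled the same, 22 moved and 4 changed sign. The same meant an equal count or one within 1.5 times, a log2 difference moved by less than the SD, or a correlation of the same sign and call. A count labelled the same can thus hold other calls, and its direction was not compared. Without the 6 arrays labelled young KO saline 1 member, Sbsn, passed in the bleomycin effect of old KO less 16-week WT lungs, against 0 otherwise. In old KO saline against labelled young KO saline lungs, the count of other squamous genes was 0 with only the groups compared, 1 without the 3 arrays with Zmpste24 above 7 (chosen after seeing the data) and 1 to 13 with each array left out, and that of basal genes was 5 under quantile normalization, 0 with only the groups compared, 0 without those 3 arrays and 0 to 7 with each array left out. Without the 3 arrays, 1 basal gene was counted for labelled young KO saline against young WT saline lungs, and 3 basal and 6 squamous genes for young KO bleomycin against labelled young KO saline lungs. These fits hold fewer arrays. The correlation of Krt4 with Krt13 (0.0034) was -0.037 after subtracting group means, -0.024 under quantile normalization and -0.0084 without the 2 arrays farthest from the median, and that of Krt15 with Krt4 (-0.015) was -0.28 after subtracting group means (rho = -0.41, permutation p = 0.0489 before adjustment) and 0.17 without those 2, with none past the threshold after adjustment. Set as a term with all 6 arrays labelled young KO saline gave the main values, since only that label spans the sets. Replicate numbers did not pair the samples, with correlations of same-numbered deviations from -0.382 to 0.28. With the replicate block the counts in labelled young KO saline against young WT saline lungs were 10 squamous and 7 basal genes, and no count moved by over 1.5 times. The number of arrays and the low level of Trp63 and Krt15 limit what could be seen.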
